A study of Mus musculus with 6 samples.

Results

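C1q-low infiltrating monocytes were examined in single-cell RNA data from mouse skin. They are cells that carry monocyte transcripts but little RNA for the complement protein C1q, which is made by tissue macrophages. A cell was counted when the summed level of C1qa, C1qb and C1qc was under 10 UMIs (unique molecules) per 10000 UMIs of the cell and Lyz2, the lysozyme gene of myeloid cells, was present. It also needed at least 2 of the monocyte genes Ccr2, Plac8, Csf1r and Fcgr1. Cells with Cd207 (Langerhans cells), Flt3 (dendritic cells), Cd3e or Cd3g (T cells), or a summed Krt5 and Krt14 level of 20 or more (keratinocytes) were left out. The rule names Ly6c2 and Ms4a4c as well, which were not used here because the files analysed hold no column for them. The rule selected 114 of 21178 cells. Cells that met every other condition but had a C1q level of at least 10 are called C1q-high cells here, a definition made for this comparison, and numbered 574.

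Skin came from mice of the NINJA strain, 6 to 12 weeks old, a line with a neoantigen that can be turned on, and the sampled area had been treated with 4-OH-Tam in every group. The labels give 3 groups of 2 mice. In NO_AG the antigen was off, in AG it was on, and in AG_CPI it was on together with the treatment that the labels abbreviate as CPI. The labels state that CD8 T cells of the P14 kind (a transgenic receptor) were examined from each mouse before sequencing. They do not give the sex of the mice or the batch of the libraries.

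Classical monocytes leave the blood through the chemokine receptor Ccr2 and enter inflamed skin. There they can lose blood monocyte transcripts and gain those of macrophages, among them C1q, lysosomal proteases and lipid carriers. They respond to type I interferon through Irf7 and antiviral effectors, and to interferon gamma through chemokines such as Cxcl9 and antigen presentation genes. They also present antigen on class II molecules to T cells.

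The 6 libraries held 1736 to 4972 cells, with 1501 to 14995 UMIs in every cell. Total UMIs per library in the deposited genes ran from 5650384 to 23845530. Pairs of libraries shared 5 to 35 cell barcodes, and 6 of the 114 C1q-low cells had a barcode that also occurred in another library. In mouse AG_CPI 1, Xist, the female-specific RNA, had no UMI in the 16 C1q-low cells or the 127 C1q-high cells, while 54.9% of cells with T cell transcripts carried it. Ddx3y, a gene of the Y chromosome, had 2 UMIs in those C1q-low cells and 0 in the C1q-low cells of each other mouse. Values without AG_CPI 1 are given for the main genes, lists and counts of AG_CPI against AG.

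C1q-low cells were scarce without antigen. NO_AG 1 held 3 and NO_AG 2 held 1. AG 1 held 16, AG 2 held 70, AG_CPI 1 held 16 and AG_CPI 2 held 8. Their shares of all cells were 0.0603% and 0.0244% for the NO_AG mice, 0.457% and 1.501% for the AG mice, and 0.922% and 0.362% for the AG_CPI mice, with group means of 0.0424% ± 0.0254, 0.979% ± 0.738 and 0.642% ± 0.396 (SD, n = 2 each). Both mice of each antigen group lay above both NO_AG mice, whereas AG and AG_CPI overlapped. The odds were 16.8 times higher in AG than in NO_AG, from 9.31 without AG 2 to 30.2 without AG 1. They were 12.0 times higher in AG_CPI than in NO_AG, from 7.605 without AG_CPI 1 to 18.9 without AG_CPI 2. Each of these differences gave p = 0.333 in a two-sided exact permutation test, the smallest value that 2 against 2 mice allow. AG_CPI against AG gave p = 0.667 in the same exact test, with a log2 odds difference of -0.49 that turned to 0.36 without AG 2 and 0.17 without AG_CPI 2. A share of cells depends on how many other cells were recovered, so it does not give a number of cells in the tissue.

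**Figure D1:**
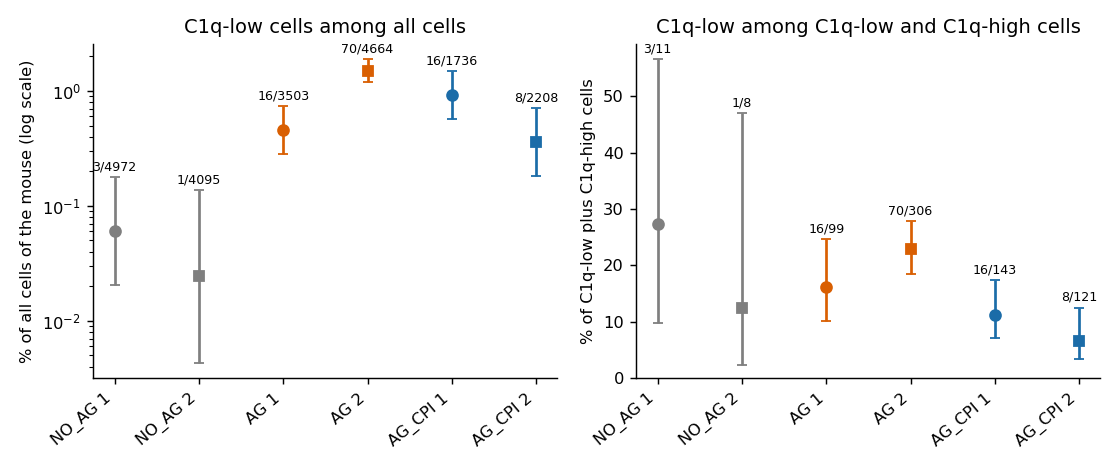
Share of C1q-low cells among all cells of each mouse (left, log axis) and among C1q-low plus C1q-high cells (right, linear axis), with 95% Wilson intervals that cover counting error only and the cell numbers printed above. The NO_AG mice lie lowest on the left, and on the right the AG_CPI mice, at 11.2% and 6.61%, lie under the AG mice, at 16.2% and 22.9%.

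Of the cells on either side of the C1q limit, C1q-low cells made up 27.3% and 12.5% for NO_AG, 16.2% and 22.9% for AG, and 11.2% and 6.61% for AG_CPI. The NO_AG values rest on 11 and 8 cells. The AG_CPI mice lay below both AG mice, with a log2 odds difference of -1.30 (-1.70 without AG_CPI 1) and p = 0.333 in the exact permutation test. After every cell had been thinned to 1500 UMIs the shares were 23.7% and 27.8% in AG and 14.5% and 18.4% in AG_CPI. The median depth of C1q-high cells, 7505 and 4109.5 UMIs in AG and 6185 and 6536 in AG_CPI, was above that of C1q-low cells, 5406.5 and 2854 in AG and 4588 and 4067 in AG_CPI. The part of depth in the unthinned shares was not tested beyond that thinning.

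Cells lay close to the C1q limit on both sides. No C1q UMI was present in 93 of the 114 cells, and the other 21 lay below the limit with a highest level of 8.54. Just above it, 18 cells had levels from 10 to 20, the lowest at 11.2, against a median of 137 over all C1q-high cells. Of the 114 cells, 64 had 2 of the 4 monocyte genes, 39 had 3 and 11 had all 4. A further 43 cells failed only because they had 1 of the 4. Among the 110 C1q-low cells of the antigen mice, Csf1r had a UMI in 85.5%, Plac8 in 70%, Fcgr1 in 62.7% and Ccr2 in 35.5%. A cell could thus be counted without a Ccr2 UMI. Cd3e or Cd3g removed 22 cells that met all other conditions, Flt3 removed 6, keratin removed 5 and Cd207 removed 1.

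**Figure D2:**
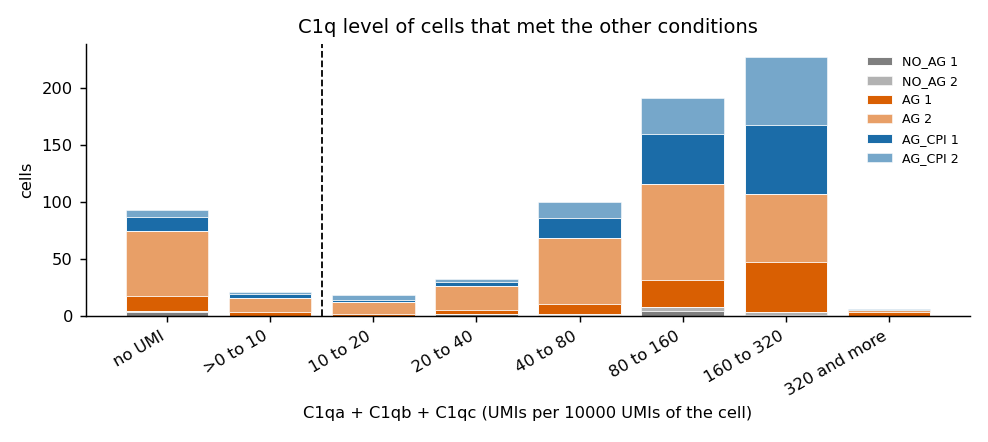
Number of cells (vertical axis) by summed C1qa, C1qb and C1qc level in UMIs per 10000 (horizontal axis), coloured by mouse, for cells that met the other conditions. The bins widen to the right, so bar heights do not compare densities. The dashed line is the limit of 10; 93 cells have no C1q UMI and 18 lie between 10 and 20.

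Monocyte markers outside the rule were present, but Vcan and F13a1, genes of classical blood monocytes, were in few cells outside AG_CPI 1. Among the 110 C1q-low cells of the antigen mice, Ms4a6c, a monocyte membrane protein gene, had a UMI in 89.1%, S100a4 in 67.3% and Chil3, a chitinase-like secreted protein of Ly6C-high monocytes, in 33.6%. Vcan had a UMI in 2 of 16 cells of AG 1, 4 of 70 of AG 2, 5 of 16 of AG_CPI 1 and 0 of 8 of AG_CPI 2. F13a1 had one in 0, 1, 4 and 0 cells of the same mice, so AG_CPI 1 had the highest share of both. All 12 listed monocyte genes outside the rule were detected, with summed levels of 19.2 and 21.2 in AG and 50.1 and 30.1 in AG_CPI, above the same sum in C1q-high cells (12.0 and 16.9, then 18.6 and 17.3) in each mouse. The cells are called C1q-low cells below, since sparse Vcan and F13a1 leave the stage of the monocyte lineage unspecified.

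Markers of other cell types were checked by their summed level in the 4 antigen mice. Of 15 resident macrophage genes outside the rule, 12 were detected, at 14.3 to 23.4, with Cd163, Lyve1 and Gas6 at 0. The 10 nonclassical monocyte genes, markers of patrolling blood monocytes, came to 11.5 and 5.36 in AG and to 7.80 and 15.2 in AG_CPI. In C1q-high cells they came to 3.71 to 3.90, and in cells with T cell transcripts to 5.43 to 7.49. Of 11 neutrophil genes, 8 were detected, at 1.65 to 5.30, with S100a9, Retnlg and Mmp9 at 0. Type 2 dendritic genes reached 4.86 to 9.32 with Zbtb46 at 0, and type 1 dendritic genes 5.70 to 6.41 with Xcr1 at 0. T cell genes reached at most 0.41, with 8 of 12 at 0. Cytotoxic lymphocyte genes came to 22.4 and 78.3 in AG and 16.5 and 65.6 in AG_CPI, of which Ccl5 made up 21.9, 77.4, 15.8 and 65.1. All 12 keratinocyte genes outside the rule were detected, and their sum was 5.81 in AG 1 and 5.17 in AG_CPI 1 but 25.5 in AG 2 and 26.6 in AG_CPI 2.

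The contrast with C1q-high cells of the same mouse describes what the rule separated. Because the rule chose these groups by their transcripts, it carries no test. Over 5598 genes, 8.61% were higher in C1q-low cells in all 4 antigen mice and 9.25% were lower in all 4. AG_CPI 2 contributes only 8 C1q-low cells, fewer than the 10 first planned for a mouse.

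Macrophage genes were the main group on the low side. Of 11 measured resident macrophage genes 10 were lower in all 4 mice, and of 24 maturation genes 14 were lower and none was higher in all 4. Their median log2 differences were -2.02 and -0.94. Ms4a7, a marker of macrophages of monocyte origin, was at 3.80, 3.88, 2.08 and 2.85 UMIs per 10000 in C1q-low cells of AG 1, AG 2, AG_CPI 1 and AG_CPI 2, against 15.4, 9.24, 11.5 and 16.1 in C1q-high cells. Apoe, a lipid carrier, was at 4.23, 5.70, 4.59 and 6.33 against 33.02, 14.9, 39.3 and 53.3. Every C1q-low value of these genes lay under every C1q-high value. Cells with keratinocyte transcripts also carried Apoe, at 34.3 to 61.6 in the antigen mice.

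Among other macrophage genes, 6 were picked after their values were seen and were lower in all 4 mice. The list of alternative activation and repair genes had 3 of 14 lower and 1 higher in all 4. The mean log2 difference, C1q-low minus C1q-high, was -2.36 ± 1.24 (SD, n = 4 mice) for Cd63, a lysosomal membrane protein, -1.64 ± 0.65 for the protease Ctsl and -0.96 ± 0.27 for Ctsb. It was -1.18 ± 0.45 for Trem2, a lipid receptor, and -2.41 ± 0.47 for Selenop, a selenium carrier. Retnla, a secreted protein of alternatively activated macrophages, had no UMI in the 110 C1q-low cells of the antigen mice, and was at 21.8, 18.4, 5.03 and 6.27 in the C1q-high cells. With 3 UMIs over the group as the upper limit for a count of 0, its pooled level was at least 88.9-fold lower, or at least 23.9-fold without AG 2.

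Monocyte markers lay on the high side. Of 9 monocyte markers with enough UMIs, 6 were higher in all 4 mice, as were 4 of 15 oxidative burst and antimicrobial genes (median log2 difference 0.15) and 7 of 26 transcription factors, of which 2 others were lower in all 4. Of 6 nonclassical monocyte genes 3 were higher in all 4, namely Nr4a1, Cd300ld and Itgal, the last an integrin gene that lymphocytes also use. Type 1 dendritic genes had a like share, with 2 of 3 higher in all 4 and a median log2 difference of 0.72, beside 0.79 for monocyte markers. Of 5 type 2 dendritic genes 2 were lower and 0 higher in all 4. Chil3 was at 2.21, 2.15, 14.8 and 4.57 in C1q-low cells against 0.124, 1.40, 1.03 and 1.15 in C1q-high cells. Of 31 type I interferon-stimulated genes 4 were higher in all 4, with a median of -0.04, a share near that of all genes. One of them, Ifitm3, an antiviral membrane protein, was at 35.9, 38.6, 23.5 and 22.4 against 14.1, 24.01, 9.77 and 12.3. The mean log2 difference was 1.69 ± 0.92 (SD, n = 4 mice) for Gsr, which reduces glutathione, 0.79 ± 0.42 for S100a4, 0.72 ± 0.63 for the transcription factor Cebpb and 0.55 ± 0.15 for the peroxiredoxin Prdx5. Of 10 keratinocyte genes with enough UMIs, 4 were also higher in all 4 mice, a larger share than in the oxidative burst and transcription factor lists. Of these Lgals7 was at 2.11, 7.11, 1.45 and 14.99 against 1.64, 3.69, 1.08 and 1.35, and the part of keratinocyte RNA in these differences was not tested.

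Class II genes were abundant in both, and lower in C1q-low cells. Of 11 measured class II genes, 7 were lower in all 4 mice, with a median log2 difference of -0.59. H2-Ab1, the beta chain of the I-A molecule, was at 119, 108, 74.1 and 91.0 against 183, 141, 136 and 147. Cells with keratinocyte transcripts had at most 4.76.

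**Figure D3:**
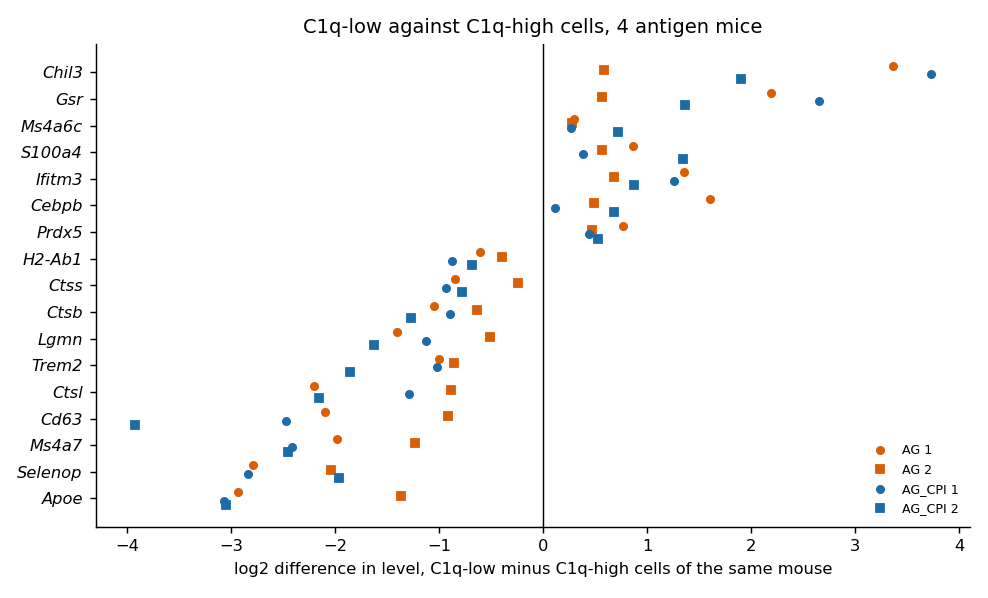
Log2 difference in level between C1q-low and C1q-high cells of the same mouse (horizontal axis, UMIs per 10000 with 0.1 added) for 17 genes picked from the lists after their values were seen, 1 point per antigen mouse. The 7 upper genes lie right of 0 and the 10 lower genes left of 0 in all 4 mice.

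The 4 NO_AG cells allowed no test, and antigen cannot be separated from their small number. Cxcl9, an interferon gamma-induced chemokine that attracts T cells, had no UMI in them, and stood at 16.6 and 19.0 in AG and 26.95 and 25.1 in AG_CPI. Isg15, a ubiquitin-like protein induced by type I interferon, had no UMI either, and stood at 15.1 and 32.5 in AG and 7.04 and 6.15 in AG_CPI. H2-Ab1 was present at 69.3 and 80.1. The upper limit for a count of 0, 3 UMIs, equals 3.33 per 10000 in NO_AG 1 and 7.28 in NO_AG 2. The second lies above both AG_CPI values of Isg15, so a difference from AG_CPI was not detectable for NO_AG 2.

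Type I interferon-stimulated genes were lower in AG_CPI than in AG across most of their list, although no gene passed the test. The comparison asks how CPI treatment alters the cells under antigen. The 10 cells per mouse first planned would have left it out, and a minimum of 5 was set after the cell numbers were seen. By limma with Benjamini-Hochberg adjustment over 1403 genes, 0% were called at 0.05, 99 had an unadjusted p under 0.05, and the smallest adjusted p was 0.223. Leaving out 1 mouse gave 0 to 12 called genes, with 12 without AG_CPI 1, 8 without AG_CPI 2, 7 without AG 1 and 0 without AG 2. Scaling set the centre of the comparison. The median log2 fold change over all genes was -0.29 after TMM scaling and -0.06 with the deposited scaling alone, so values are read against those medians.

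Without a filter on low values, 25 of the 31 type I interferon-stimulated genes with a column had both AG_CPI mice below both AG mice, where 20.8% of 9639 genes did and 7.55% had both above, and 30 had a lower mean. Their median log2 fold change was -1.43, beside -0.26 over all those genes. In the filtered fit 21 of them were tested, where the filter can be passed through the AG mice alone, and 20 did not overlap and were lower, against 31.9% lower and 6.84% higher among all genes tested, with a median of -1.60. With the deposited scaling alone that count was 19, against 20.2%, with a median of -1.39. Without AG_CPI 1 the median of the 21 was -1.31, and without AG_CPI 2 it was -1.28. Without AG 1 or AG 2 only 8 were tested, with medians of -1.26 and -0.83. Their summed level was 122 and 161 in AG, 65.1 and 71.5 in AG_CPI, and 45.5 and 80.1 in NO_AG.

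Irf7, the transcription factor that amplifies the type I interferon response, was at 6.19 and 6.44 UMIs per 10000 in AG and 0.492 and 2.07 in AG_CPI. The AG mice were alike and both AG_CPI mice were lower. Its log2 fold change was -2.73 ± 0.52 (SE), with an adjusted p of 0.223 by limma. Without AG_CPI 1 the fold change was -1.86, and without AG_CPI 2 it was -3.55. Irf7 had a UMI in 50% and 57.1% of AG cells and in 12.5% of cells in each AG_CPI mouse after thinning to 1500 UMIs.

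Isg15 was at 15.1 and 32.5 in AG against 7.04 and 6.15 in AG_CPI, with a log2 fold change of -1.98 ± 0.39 and an adjusted p of 0.223 by limma. The AG mice differed by more than the AG_CPI mice, and the groups did not overlap. Without AG 2 the fold change was -1.36, and without AG_CPI 1 it was -2.14. After thinning it had a UMI in 75% and 81.4% of AG cells and 43.8% and 50% of AG_CPI cells. It was lower in AG_CPI outside the C1q-low cells too. C1q-high cells stood at 12.7 and 15.1 in AG and 7.04 and 9.41 in AG_CPI, cells with keratinocyte transcripts at 4.36 and 6.38 against 1.58 and 1.75, and cells with T cell transcripts at 1.52 and 3.27 against 0.923 and 1.18. The part of RNA from other cells in the C1q-low values was not tested.

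The antiviral genes given next had lower mean levels in AG_CPI, and Rsad2, Ifit3 and Ifit1 were less abundant than Isg15. Rsad2, which makes an antiviral nucleotide, was at 1.44 and 3.88 in AG and 0.475 and 0.894 in AG_CPI (log2 fold change -1.93 ± 0.60, adjusted p = 0.542 by limma). Ifit3, which binds viral RNA complexes, was at 1.73 and 2.89 in AG and 0 and 1.05 in AG_CPI. Without AG_CPI 1 the log2 fold changes were -1.60 for Rsad2 and -1.31 for Ifit3. Ifit1 was at 1.07 and 2.70 in AG and 0.102 and 1.19 in AG_CPI, so its deposited levels overlapped. Ifitm3 was at 35.9 and 38.6 against 23.5 and 22.4, and Ifi27l2a at 26.2 and 25.01 against 14.1 and 18.2, with adjusted p of 0.537 for each by limma. These abundant genes differed by less on the log2 scale, -0.93 ± 0.27 and -0.91 ± 0.28.

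**Figure D4:**
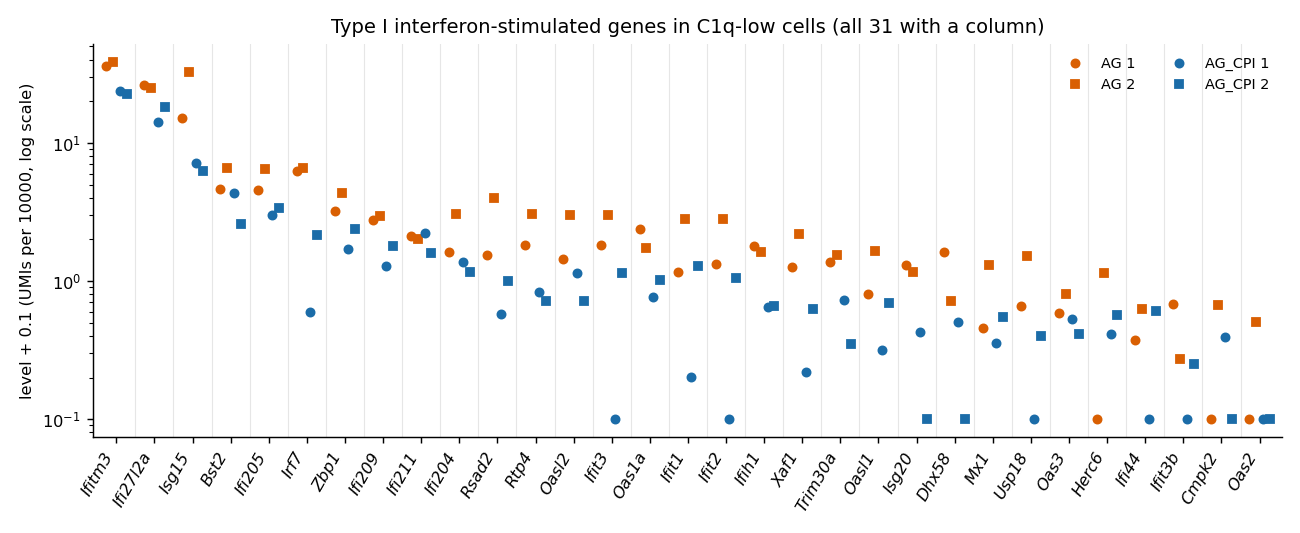
Level in C1q-low cells (vertical axis, UMIs per 10000 with 0.1 added, log scale) of all 31 type I interferon-stimulated genes with a column, ordered by level, 1 point per antigen mouse. Isg15 stands at 15.1 and 32.5 in AG and at 7.04 and 6.15 in AG_CPI.

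Genes of the interferon gamma response lay near all genes, with a median that depended on single mice. Of 15 tested, 3 were lower and 1 higher without overlap, beside 31.9% and 6.84% of all genes, and their median log2 fold change of -0.28 was close to the -0.29 over all genes. Without AG 1 the median was -0.70 over 13 genes, beside -0.20 over all genes, and without AG 2 it was 0.13 over 10. Cxcl9 had a log2 fold change of 0.31 ± 0.29 and an adjusted p of 0.804 by limma. Cxcl10, a chemokine induced by both kinds of interferon, was at 3.42 and 11.1 in AG against 5.79 and 8.30 in AG_CPI, with overlap, and the sign of its fold change differed between scalings. A single interferon-inducible GTPase had enough UMIs to be tested.

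Among chemokines, 10 were tested, with 4 lower and 2 higher without overlap, beside 31.9% and 6.84% of all genes. Their median log2 fold change was -0.34, and it ran from -0.60 without AG_CPI 2 to 0.20 without AG 2. Ccl4, a chemokine that attracts lymphocytes and monocytes, was at 18.3 and 10.5 in AG and 0.235 and 4.02 in AG_CPI, a log2 fold change of -3.80 ± 0.80 with an adjusted p of 0.244 by limma. Its fold change was -2.06 without AG_CPI 1, -5.48 without AG_CPI 2, and -0.81 when cells with at least 1 of the monocyte genes were taken. Ccl24, an eotaxin, was at 1.45 and 6.69 in AG and had no UMI in the 24 AG_CPI cells. Its 162 UMIs in AG against the limit of 3 UMIs over the AG_CPI group gave a pooled level at least 20.2-fold lower. AG 2 supplied 148 of these UMIs, in 10 of its 70 cells, and AG 1 alone gave at least 6.20-fold. In C1q-high cells Ccl24 fell in AG_CPI, from 2.05 and 4.97 to 0.643 and 0.115, and was 1 of 8 genes called among 6050 there (0.132%), with an adjusted p of 0.0165 by limma. Ccl5 was at 21.9 and 77.4 in AG against 15.8 and 65.1 in AG_CPI, with overlap, and was at 69.4, 90.5, 83.0 and 90.7 in cells with T cell transcripts of the same mice. Ccl6 was at 3.32 and 0.473 in AG and 4.87 and 4.80 in AG_CPI. Of the cytokines, Tnf was at 3.49 and 1.80 in AG against 0.375 and 1.32 in AG_CPI, and its log2 fold change of -1.89 was -1.16 without AG_CPI 1. Il1b overlapped at 4.59 and 13.99 against 9.82 and 12.1.

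The class II genes that passed the filter had lower means in AG_CPI, by less than the type I interferon genes, and none passed the test. All 9 tested had a lower mean, 6 without overlap (beside 31.9% of all genes), and the median log2 fold change was -0.61, against -0.38 with the deposited scaling alone. Without a filter on low values 12 had a value, of which 9 had a lower and 3 a higher mean. Of these 6 were lower and 1 higher without overlap, beside 20.8% and 7.55% of all genes without the filter. H2-Ab1 was at 119 and 108 in AG and 74.1 and 91.0 in AG_CPI (-0.70 ± 0.23 on the log2 scale, adjusted p = 0.545 by limma). The cells of a mouse were not alike in this gene. By a limit chosen after the values were seen, H2-Ab1 was under 20 in 4 of 16 cells of AG 1, 3 of 70 of AG 2, 6 of 16 of AG_CPI 1 and 2 of 8 of AG_CPI 2. The other cells had means of 158 and 112 in AG against 118 and 121 in AG_CPI, with overlap. Leaving out only the cells with no H2-Ab1 UMI gave 147 and 109 against 108 and 104, without overlap. H2-Aa, the alpha chain, was at 117 and 114 against 69.4 and 101, and the invariant chain Cd74 at 284 and 239 against 193 and 230. Class I genes stood near all genes, with a median of -0.35 over 18 genes and 8 lower without overlap, beside 31.9%. Tap2, which moves peptides into the endoplasmic reticulum, was the furthest, at 2.51 and 2.03 in AG and 0.754 and 0.252 in AG_CPI, while B2m, the light chain, was at 35.2 and 47.2 against 41.0 and 40.6.

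Maturation genes had a median log2 fold change of -0.69 over 16 tested, with 5 lower and 0 higher without overlap, a share near the 31.9% of all genes. Without AG_CPI 2 the median was -0.20, beside -0.09 over all genes. Ms4a7 was at 3.80 and 3.88 against 2.08 and 2.85. Apoe overlapped, at 4.23 and 5.70 against 4.59 and 6.33. The 6 monocyte markers tested had a median of 0.67, with 2 higher without overlap, beside 6.84% of all genes. Without a filter on low values 11 of 12 had a higher mean, 4 without overlap beside 7.55%, and the median was again 0.67. The sign of the median did not hold throughout: it was -0.18 over 5 genes without AG 1 and -0.19 over 3 genes after thinning. The medians over all genes were then -0.20 and -0.35. Chil3 was at 2.21 and 2.15 in AG and 14.8 and 4.57 in AG_CPI, a log2 fold change of 1.64 ± 0.53 with an adjusted p of 0.545 by limma. It had a UMI in 5 of 16 cells of AG 1, 20 of 70 of AG 2, 10 of 16 of AG_CPI 1 and 2 of 8 of AG_CPI 2, so the share in AG_CPI 2 was below both AG mice. After thinning the shares were 12.5% and 7.14% in AG against 56.25% and 25% in AG_CPI. Without AG_CPI 1 its fold change was 0.74.

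Of the other genes with the smallest p and no overlap, all were lower in AG_CPI. Among all genes tested 31.9% were lower and 6.84% higher without overlap, and 20.2% and 14.8% with the deposited scaling alone. Under that scaling Chil3 and Cst3, both higher in AG_CPI, had an adjusted p of 0.647 by limma, against 0.834 for each gene named next. Pltp, a phospholipid transfer protein, was at 4.67 and 3.22 in AG and 0.936 and 1.88 in AG_CPI, and Ass1, which makes argininosuccinate, at 14.8 and 13.5 against 7.50 and 6.77. Mmp14, a membrane metalloproteinase, was at 4.65 and 5.48 against 2.11 and 2.10, and the immediate early gene Ier5 at 5.59 and 3.46 against 1.31 and 2.11. Their adjusted p was 0.489 each by limma.

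In the remaining lists no gene passed the test either. Transcription factors had a median log2 fold change of -0.45 over 17 tested, with 8 lower without overlap, beside 31.9% of all genes. Glycolysis genes had -0.34 over 11, with 2 lower without overlap, and without AG_CPI 2 their median was 0.27, beside -0.09 over all genes. Oxidative burst genes had 0.04 over 11 and chemokine and migration receptors 0.26 over 8, which became -0.04 without AG 1. Ligands of T cells had -0.68 over 7, with 4 lower without overlap, beside the same 31.9%. Type 2 dendritic genes had -1.21 over 3, with 3 lower without overlap, beside that share. Without a filter on low values 6 of 9 type 2 dendritic genes had a lower and 3 a higher mean. Their median was then -0.26, as over all genes. Gapdh, a glycolytic enzyme, was at 16.1 and 21.98 in AG and 38.2 and 23.6 in AG_CPI.

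Without AG_CPI 1 the median over all genes was -0.40. The list medians were then -0.51 for class II, -0.46 for class I, -0.84 for maturation, 0.36 for monocyte markers, -0.19 for the interferon gamma response and -0.05 for chemokines. Class II, maturation and monocyte markers kept their sign without that mouse. Class II then lay closer to all genes than with that mouse included, where it was -0.61 beside -0.29. The type I interferon list, at -1.31, was the lowest of these.

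**Figure D5:**
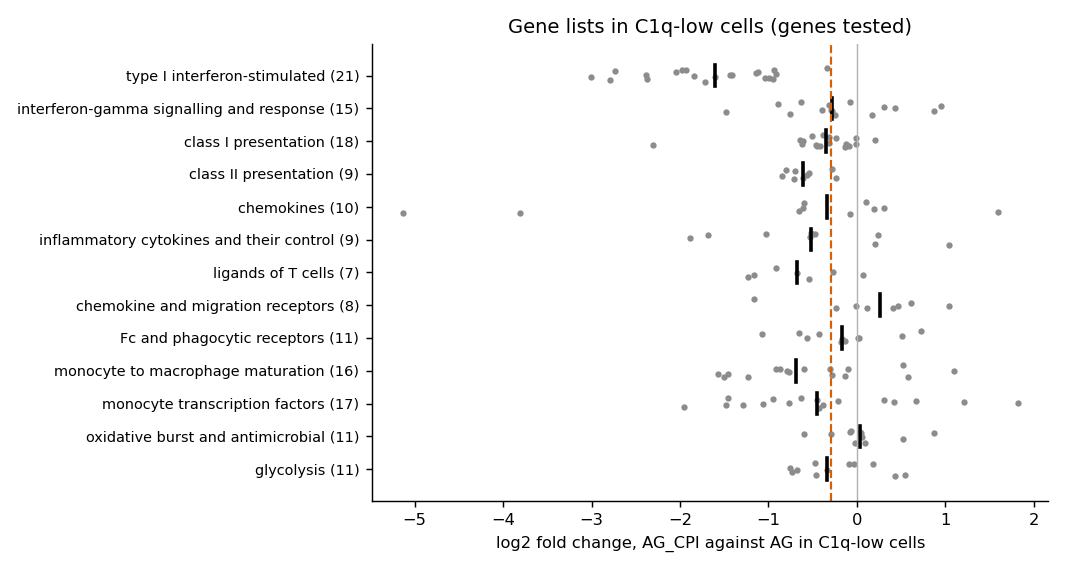
Log2 fold change, AG_CPI against AG, in C1q-low cells (horizontal axis) for the tested genes of 13 lists, with the number tested in brackets, 1 point per gene and a bar at the median. The dashed line is the median over all 1403 genes, -0.29; the type I interferon list has a median of -1.60, and the leftmost chemokine is Ccl24, whose fitted value depends on the 0.1 added.

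Whether these changes differed from those in C1q-high cells of the same mice was tested on the difference between the 2 cell groups within each mouse. By limma, 0 of 1402 genes (0%) were called, with 109 at an unadjusted p under 0.05 and a smallest adjusted p of 0.231. Leaving out 1 mouse gave 2 to 87 called genes, with 87 without AG_CPI 1, 23 without AG_CPI 2, 18 without AG 1 and 2 without AG 2. Without a filter on low values the 31 type I interferon genes had a median difference of -1.22, against -0.24 over all genes, and the 21 that passed the filter had -1.33, against -0.26. In C1q-high cells 28 of 31 had a lower mean in AG_CPI, with a median of -0.33 beside 0.01 over all genes. Irf7 was at 4.23 and 3.31 in C1q-high cells of AG and 1.99 and 2.85 in AG_CPI, and the difference of its log2 fold changes was -2.11 ± 0.47 with an adjusted p of 0.231 by limma.

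Cst3, a secreted protease inhibitor, was the gene with the smallest p in that fit. In C1q-low cells it was at 33.8 and 31.1 in AG and 76.5 and 62.3 in AG_CPI, against 38.7 and 42.7, then 33.8 and 29.9, in C1q-high cells. It was higher in AG_CPI in the first and lower in the second, and the difference of 1.199 ± 0.237 on the log2 scale had an adjusted p of 0.231 by limma. Mmp14 and AA467197 had opposite directions to Cst3, with differences of -1.77 ± 0.36 and -1.56 ± 0.35 and the same adjusted p. Of the other genes with the smallest p and no overlap, Ccl4, Ifi205, Slamf9, Dusp1, Ehd1 and Pltp also had lower differences, from -2.99 for Ccl4 to -1.17 for Dusp1.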

How the data were processed

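Single-cell RNA was captured from 6 skin samples, 2 per group, with the 5' chemistry of 10x Genomics, per the labels' protocols. The submitters' processing notes name Cell Ranger 3.1 and mm10. The deposited values are log10 of 1 plus UMIs per 10000 UMIs of the cell. The authors' files do not state this unit. It was read from the values: inverted as log10, 100% gave whole UMIs within 0.05, against 66.9% to 69.8% under the natural log. Deposited genes, 16158, hold 95.4% to 96.7% of UMIs. Cell filters are not given in the sources used here.

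Linear values were averaged over the cells of a class in each mouse, scaled by TMM, and tested as log2 after adding 0.1 with limma 3.58.1 in R 4.3.3, for genes with at least 10 UMIs and a mean of 0.1 in at least 2 libraries. Levels quoted are before TMM, and counts without overlap use scaled values. The 14 genes of the rule with a column were not tested. Calls are at an adjusted p of 0.05. No NO_AG mouse had 5 cells. Doublets were scored, and 667 cells were marked, 5 of them C1q-low. They were kept in the main results. Shares were compared by exact permutation over mice, with Wilson 95% intervals that cover counting error only. The minimum of 5 cells, in place of 10, and the alternative with at least 1 monocyte gene were chosen after seeing the data. Cells and lists were chosen with earlier results of these data known. Up to 15 called genes in each direction were to be named, and, since fewer than 5 passed, those among the 10 with the smallest p and no overlap are given, with members of the lists. Some genes under these rules are not reported here. Fits were also run on simulated counts with a fixed dispersion and no spread between single cells. That run cannot show how the fit performs at the spread of these cells. P-values measure the spread between these mice. No sequence is shown, because promoters were to be shown only if interferon genes were called. Python 3.11.15, numpy 2.4.6, pandas 2.3.3, scipy 1.17.1 and matplotlib 3.10.9 were used.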

Additional observations from a re-analysis of the deposited data

Results flagged for a closer look

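In mouse AG_CPI 1, Ddx3y, a gene of the Y chromosome that enters no comparison, had 24 UMIs in C1q-high cells, in 17.3% of them, and 0 in C1q-high cells of the other 5 mice. The labels give no sex, and Xist had no UMI in those cells.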

How the results depend on the processing

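Of the shares, the log2 odds difference for AG_CPI against AG among all cells was -0.49 (leave-one-out range -1.33 to 0.36) and reversed without AG 2 (0.36) and without AG_CPI 2 (0.17). Among C1q-low plus C1q-high cells, AG against NO_AG was -0.24 (-0.76 to 0.28) and reversed without NO_AG 1 (0.28) and without AG 1 (0.05). The other 4 share comparisons kept their direction: AG against NO_AG (3.22 to 4.92) and AG_CPI against NO_AG (2.93 to 4.24) among all cells, and AG_CPI against AG (-1.70 to -0.91 leaving out 1 mouse, -0.78 at the extreme) and against NO_AG (-2.06 to -1.02) among C1q-low plus C1q-high cells.

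The count of genes called in AG_CPI against AG, 0, became 3 with no filter on low values (Ccl24, Ccl4, Irf7) and 3 with doublets removed (Ccl4, Irf7, Isg15), and 0 to 12 leaving out 1 mouse (7 without AG 1, 12 without AG_CPI 1, 8 without AG_CPI 2). The count of genes whose change differed from C1q-high cells, 0, became 3 with no filter, 1 with no C1q UMI allowed (Atf3), and 2 to 87 leaving out 1 mouse (18 without AG 1, 2 without AG 2, 87 without AG_CPI 1, 23 without AG_CPI 2). With 1 mouse left out, the lone mouse is assumed to vary like the other group. The cause of these counts was not tested. Another pseudocount, the deposited scaling, summed UMIs, thinning, and leaving out cells with dendritic or lymphocyte genes kept both counts at 0. With the replicate number as a block they were 0 and 0. Same-numbered mice deviated with r = 0.0153 over 1403 genes, and 2 pairs do not settle whether the numbers pair the mice. Keratinocyte sums were 5.81 and 5.17 in the mice numbered 1 and 25.5 and 26.6 in those numbered 2.

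Over 39 genes and their alternatives, 515 of 553 values kept their direction and side of the threshold, 20 moved past it and 18 reversed. Without AG 2 the log2 fold change became 0.83 for Cxcl10, 0.38 for Ccl5, 0.17 for Apoe, 0.041 for B2m and 0.12 for Tgfbi. Leaving out 1 mouse gave lows of -0.94 for Cxcl10, -1.54 for Ccl5, -0.35 for Apoe, -0.48 for B2m and -0.62 for Tgfbi, and a high of 1.06 for Il1b. Without AG_CPI 1 it became 0.11 for Cxcl10, 0.35 for Ccl5 and 0.06 for Apoe, and without AG 1 -0.63 for Il1b. With the deposited scaling it was 0.16 for Cxcl10, 0.13 for Apoe and 0.00046 for B2m. With thinned cells it was 0.21 for Cxcl10, -0.33 for Il1b and 0.18 for Apoe. With at least 1 monocyte gene it was 0.44 for Cd63, 0.18 for Apoe and 0.038 for Ifi205. Fits of either antigen group against NO_AG, and with at least 3 monocyte genes, were not run, since a mouse had too few cells. The 8 cells of AG_CPI 2 limit all AG_CPI values.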

Other observations

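The pair of genes given here was chosen after its values were seen. Rsad2 had a UMI in 27 of 89 C1q-low cells with Isg15 and 0 of 25 without it, and after thinning to 1500 UMIs in 22 of 80 and 1 of 34. Within AG 2, which supplied 70 of the 114 cells, the counts were 21 of 62 and 0 of 8, and 16 of 57 and 1 of 13 after thinning.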
